A study of Rattus norvegicus with 6 samples.

Results

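Cyclic nucleotide phosphodiesterases were followed in single-nucleus RNA-seq of the rat nucleus accumbens. The 10 genes Pde10a, Pde1b, Pde1c, Pde2a, Pde4b, Pde4d, Pde5a, Pde7b, Pde8a and Pde11a were taken by symbol from the 25629 genes of the files, and all 10 were found. Phosphodiesterases break the second messengers cAMP and cGMP and so set how long a signal of an adenylyl or guanylyl cyclase lasts. In the spiny projection neurons of the striatum, Drd1 dopamine receptors raise cAMP, whereas Drd2 dopamine receptors and opioid receptors lower it. Enzymes of this family differ in their substrate and in their control: some cut cAMP, some cut cGMP and some cut both, and some are switched on by calcium-bound calmodulin or by cGMP.

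All rats were Sprague-Dawley animals of postnatal day 90 to 120 that had self-administered heroin over 14 days: 7 days in which each response was rewarded, 4 days with 3 responses per reward, a progressive ratio test on day 12, and days 13 and 14 again with 3 responses per reward. After the last session each rat received saline or naloxone, an antagonist of opioid receptors, and the brain was taken 1 hour later. There were 3 saline libraries (replicates 1 to 3) and 3 naloxone libraries (replicates 4 to 6), and each library pooled male and female tissue. The study used 12 rats, 6 male and 6 female, and the libraries were the replicates here; the labels do not name the rats of a library, and no group without heroin was analysed.

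Each library held between 55739350 and 76272798 UMIs (counted RNA molecules) over 8094 to 15020 nuclear barcodes. The labels speak of 44592 sequenced nuclei, and the files hold 64260 barcodes, of which 58847 were used. Pairs of libraries shared 19 to 45 barcodes, at most 0.408% of the smaller library. The median mitochondrial share was 0.567% in naloxone replicate 5 and 0.153% to 0.345% in the other libraries. Libraries of 1 group differed from each other by far more than sampling noise (chi-square of their counts over its degrees of freedom, 9.92 to 48.1).

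Nuclei were sorted into 18 classes by clustering with the 10 genes left out. Of 47 clusters, 25 with 43954 nuclei could be placed in a class, 12 with 5274 nuclei looked like mixtures of cell types and 10 with 9619 nuclei had no name, and the last 2 sets were left out of the class values. The doublet score is the share of simulated doublets among a nucleus's neighbours. Its median was 0.706 in cholinergic interneuron-like, 0.65 in committed precursor-like and 0.635 in endothelial-like nuclei, against 0.769 or more in the mixtures. A cut on this median was the rule that set a cluster down as a mixture, so the gap was fixed in advance. What doublets added to the levels of these classes was not tested. The Drd1-like class had 5037 nuclei, with 329 CPM (UMIs per 1000000 UMIs of the class) summed over 8 Drd1-type markers against 23.8 in the Drd2-like class. The Drd2-like class had 5196 nuclei, with 1476 CPM over 7 Drd2-type markers against 187.8 in the Drd1-like class. A spiny cluster of 2109 nuclei that carried Drd1-type markers but was led by Drd3 was kept apart as the Drd3-led cluster. Tac1 and the cholinergic genes Chat and Slc18a3 were not found among the symbols, so those classes rest on their other markers, and the Pthlh interneuron-like class rests on Pthlh, Kit and Kcnc2. Mural-like and ependymal-like nuclei numbered as few as 14 in a library and were described but not tested, which left 16 tested classes. Counts came from the 3′ side of nuclear RNA and were not corrected for gene length, so a level in CPM is compared for the same gene between classes and never between genes.

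Pde10a, the dual-substrate enzyme for which the striatum is best known, was highest in the 4 spiny classes around Drd1 and Drd2. Its level was 2207 CPM ± 223 (SD, n = 6 libraries) in the Drd3-led cluster, 2060 ± 173 in Drd2-like, 1998 ± 228 in eccentric-like and 1901 ± 199 in Drd1-like nuclei. In the Drd1-like class the saline libraries gave 1741, 1994 and 1991 CPM and the naloxone libraries 1731, 2215 and 1733. In the Drd2-like class they gave 1967, 2129 and 2077 CPM with saline and 1932, 2362 and 1894 with naloxone. Naloxone replicate 5 was the highest library in both, and the groups overlapped. The next class, the somatostatin interneuron-like nuclei, had 1052 CPM, and the Drd1-like level exceeded it in 6 of 6 libraries. Chst9-like spiny nuclei, a class marked by Chst9, Grm8 and Oprm1 (the mu opioid receptor), had 345 CPM ± 28.4, and the island-like GABA class had 161 ± 61.1. Oligodendrocyte-like and microglia-like nuclei had 47.0 and 51.7 CPM.

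Shares of nuclei with a UMI were compared after thinning each nucleus to 1000 UMIs. A Pde10a UMI was then expected in 75.2% of Drd1-like nuclei (99.3% before thinning, median depth 9405 UMIs), against 3.76% of microglia-like nuclei (5.70% before thinning, median depth 1270 UMIs). How much free RNA of other cells added to these shares was not tested. The astrocyte-like share was 27.4%, but the astrocyte-like level ran from 193 to 911 CPM between libraries. Those extremes were naloxone replicate 4 and saline replicate 1.

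Pde1b and Pde1c encode enzymes activated by calcium and calmodulin; both cut cAMP and cGMP, and Pde1b prefers cGMP. Pde1b was highest in the Drd3-led cluster with 218 CPM ± 18.2 (SD, n = 6), followed by Drd2-like nuclei with 189 ± 19.97 and Drd1-like nuclei with 173 ± 15.9. Each of these 3 was higher than the next in 6 of 6 libraries. The eccentric-like class had 93.2 CPM, the Chst9-like class 37.9 and the oligodendrocyte-like class 11.6. Pde1c was at 787 CPM ± 102 in the Drd3-led cluster and 750 ± 80.8 in Drd1-like nuclei, a difference within the spread (higher in 4 of 6 libraries, exact sign-flip permutation p = 0.438). Chst9-like spiny nuclei had 23.9 CPM and island-like GABA nuclei 19.96. Outside the spiny neurons, Pde1c stood at 617 CPM ± 116 in committed oligodendrocyte precursor-like nuclei, against 188 in the precursors before them and 298 in oligodendrocyte-like nuclei. Its saline libraries there gave 549, 671 and 506 CPM and its naloxone libraries 769, 495 and 711, and the groups overlapped. The committed precursor-like class had a high median doublet score (0.65), and what doublets added to this level was not tested.

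Pde2a encodes an enzyme that cGMP stimulates to cut cAMP. It was high in the island-like GABA class as well as in the main spiny classes: 343 CPM ± 41.9 (SD, n = 6) in the Drd3-led cluster, 333 ± 35.8 in Drd2-like, 313 ± 31.7 in island-like and 286 ± 29.3 in Drd1-like nuclei. Neighbours among the first 3 did not separate (exact sign-flip permutation p = 0.156 and 0.0938). Chst9-like spiny nuclei kept 240 CPM ± 37.3, whereas cholinergic interneuron-like nuclei had 17.5 and astrocyte-like nuclei 13.0.

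Among the tested classes Pde11a, which codes for a dual-substrate enzyme, was highest in the island-like GABA class with 249 CPM ± 81.8 (SD, n = 6), 2.86 times the 87.1 ± 10.96 of the Drd1-like class. The island-like libraries gave 181, 128 and 273 CPM with saline and 324, 338 and 252 with naloxone. The lowest of them was above the highest Drd1-like library, at 107 CPM. Within the Drd1-like class the gene marked 1 of its 2 clusters: the Chst15-led cluster had 126 CPM ± 10.1 and the Ebf1-led cluster 4.66 ± 1.65. Among Drd2-like clusters it was at 111 CPM ± 24.7 in the small Dach1-led cluster of 433 nuclei, at 4.69 in the Camk4-led and at 7.29 in the Htr2c-led cluster. A further cluster of 1282 nuclei without a class name also had Pde11a among its leading genes. That cluster was left out of the class values, so the classes named here are not all the nuclei with high Pde11a.

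Pde4b and Pde4d encode cAMP-specific enzymes of the family that rolipram inhibits. Pde4b was highest in oligodendrocyte-like nuclei at 11860 CPM ± 1025 (SD, n = 6), 3.64 times the Drd3-led cluster at 3256 ± 247. The oligodendrocyte-like libraries gave 13340, 11740 and 12270 CPM with saline and 11240, 10330 and 12250 with naloxone. Every one of them was above the highest Drd3-led library, at 3582 CPM, while the groups overlapped with each other. The precursors were lower and did not differ beyond their spread, with 2454 CPM ± 146 in oligodendrocyte precursor-like and 2427 ± 226 in committed precursor-like nuclei. After thinning, 99.8% of oligodendrocyte-like nuclei were expected to hold a Pde4b UMI, against 5.66% of island-like GABA nuclei, the class with the lowest level at 93.6 CPM. Median depths in those 2 classes were 1624 and 3122 UMIs, and the shares before thinning were 99.7% and 14.3%.

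Pde4d was at 2087 CPM ± 210 (SD, n = 6) in cholinergic interneuron-like, 1865 ± 98.6 in Chst9-like and 1826 ± 116 in Bnc2-like GABA nuclei, and neighbours in this order did not separate (exact sign-flip permutation p = 0.0625 and 0.375). Drd2-like nuclei had 1435 CPM ± 32.2 and Drd1-like nuclei 851 ± 85.5. Eccentric-like spiny nuclei had 358 ± 39.7, the island-like class 344 ± 35.8 and microglia-like nuclei 47.4 ± 19.4.

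Pde7b and Pde8a encode cAMP-specific enzymes that rolipram does not inhibit. Pde7b was at 1200 CPM ± 65.6 (SD, n = 6) in Drd1-like, 1195 ± 65.1 in eccentric-like and 1145 ± 93.1 in Drd2-like nuclei, and neighbours in this order did not separate (exact sign-flip permutation p = 0.719 and 0.281). Astrocyte-like nuclei had 820 ± 91.9 and oligodendrocyte precursor-like nuclei 763 ± 47.1, whereas oligodendrocyte-like nuclei had 40.5. Pde8a was close to absent from neurons. It was at 619 CPM ± 89.2 in oligodendrocyte-like nuclei, 275 ± 108 in endothelial-like and 89.8 ± 4.90 in oligodendrocyte precursor-like nuclei, against 1.21 in Drd1-like and 1.71 in Drd2-like nuclei. The endothelial-like level was higher than that of the precursors in 6 of 6 libraries but rested on 260 UMIs in all. After thinning, 43.2% of oligodendrocyte-like and 0.142% of Drd1-like nuclei were expected to hold a Pde8a UMI, and before thinning 58.4% and 1.29% did, at median depths of 1624 and 9405 UMIs.

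Pde5a encodes the cGMP-specific enzyme that sildenafil inhibits in vascular muscle. Mural-like nuclei, which were not tested, had 573 CPM ± 157 (SD, n = 6, 129 UMIs in all), with 658, 599 and 387 CPM in the saline and 371, 694 and 729 in the naloxone libraries. The highest tested class was the endothelial-like one with 109 CPM ± 28.6, 3.37 times the Pthlh interneuron-like class at 32.4 ± 10.0. Neurons split as well: Drd3-led and Drd1-like nuclei had 26.5 ± 5.12 and 23.9 ± 4.72 CPM, and Drd2-like nuclei had 2.49 ± 0.454.

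**Figure D1:**
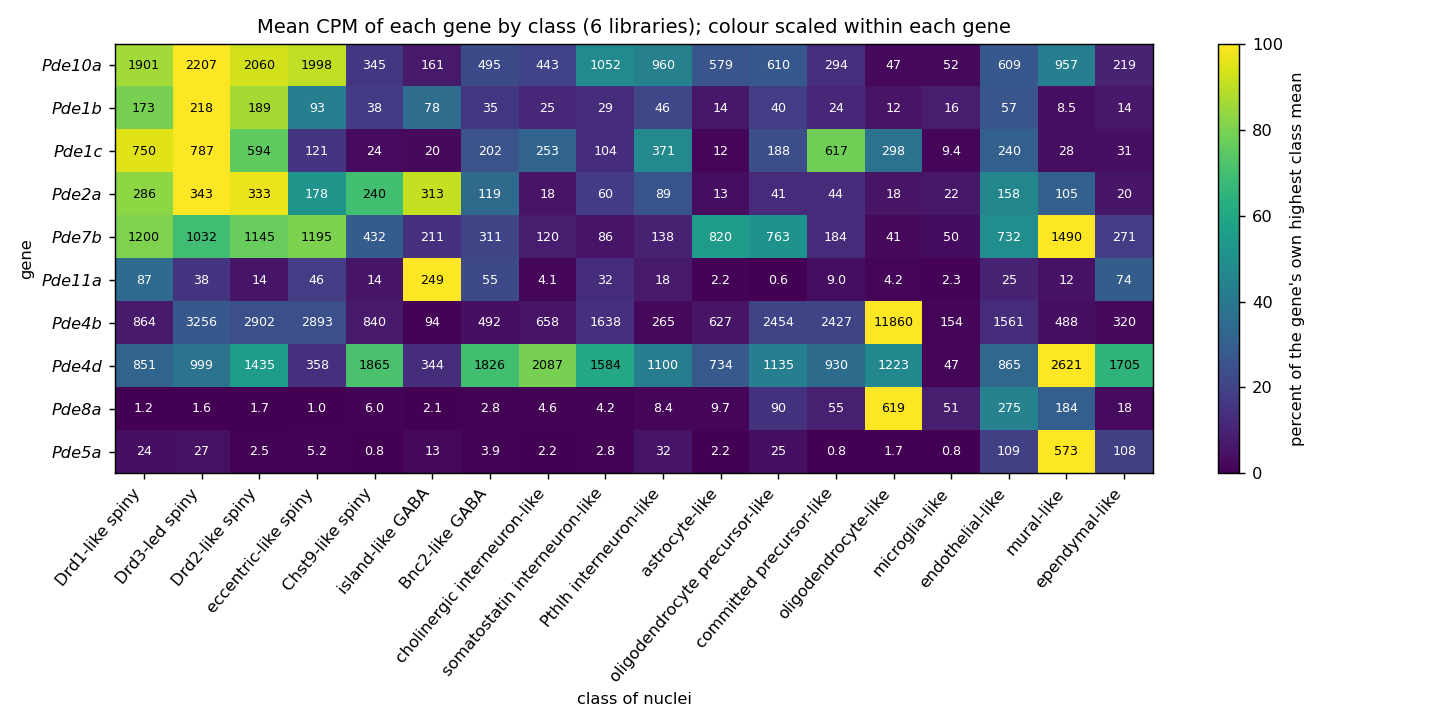
Mean CPM over 6 libraries of each phosphodiesterase gene (rows) in each class of nuclei (columns), with the colour scaled to the gene's own highest class. Pde10a, Pde1b, Pde1c and Pde2a were bright in the Drd1-like, Drd3-led and Drd2-like classes, Pde4b and Pde8a peaked in oligodendrocyte-like nuclei, and Pde5a peaked in mural-like nuclei at 573 CPM.

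For each gene the top class was set against the next by flipping the signs of the 6 library differences in every way (an exact permutation test, two-sided). The smallest p this design can give was reached for Pde10a, Pde1b, Pde4b, Pde5a, Pde8a and Pde11a, each higher in 6 of 6 libraries. Adjusted over the 10 genes (Benjamini-Hochberg) that permutation p was 0.0521, so no gap passed 0.05 in this design. The top class was chosen on the same values, so the p describes the gap alone. The ratios ran from 1.00 for Pde7b to 3.64 for Pde4b.

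The mix of the family was described as the share that each gene took of the 10 genes' summed UMIs in a class. Gene length enters each share, so a share is compared for the same gene between classes. Pde10a took 30.9% ± 2.6 (SD, n = 6) in Drd1-like, 29.1% in eccentric-like and 23.7% in Drd2-like nuclei. The share of Pde4b was 14.1% in Drd1-like, 33.4% in Drd2-like, 36.5% in Drd3-led, 41.9% in eccentric-like and 83.9% in oligodendrocyte-like nuclei. For Pde1c it was 12.2% in Drd1-like and 1.78% in eccentric-like nuclei. Pde4d took 13.9% in Drd1-like nuclei, 23.2% in the island-like class, 49.0% in Chst9-like, 51.6% in Bnc2-like and 57.7% in cholinergic interneuron-like nuclei. Pde2a and Pde11a took 4.65% and 1.42% in Drd1-like nuclei and 21.2% and 17% in the island-like GABA class. The summed level of the 10 genes was 14120 CPM ± 1019 in oligodendrocyte-like, 8677 ± 265 in Drd2-like, 6136 ± 133 in Drd1-like, 1485 ± 120 in island-like and 405 ± 58.0 in microglia-like nuclei.

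**Figure D2:**
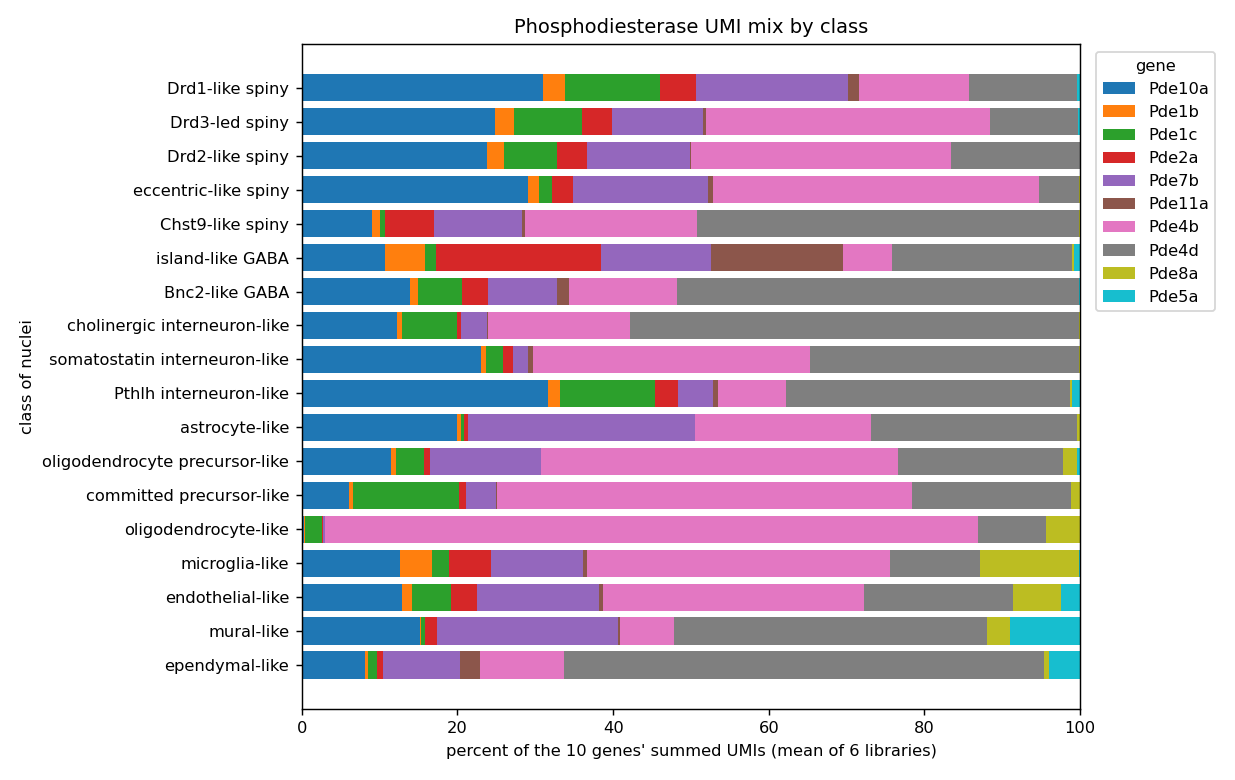
Share of the 10 genes' summed UMIs (horizontal axis, percent, mean of 6 libraries) taken by each gene (colours) in each class of nuclei (rows). The Pde4d part was 49.0% to 57.7% wide in Chst9-like, Bnc2-like and cholinergic interneuron-like against 13.9% in Drd1-like nuclei, and the Pde4b part was 83.9% in oligodendrocyte-like against 14.1% in Drd1-like nuclei.

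The genes most like each of the 10 were sought among the 10556 genes with at least 20 CPM in a class, by the Pearson correlation of log2(CPM + 1) class means over the 16 tested classes. These means share libraries and depth, and the values are descriptions. Pde10a was most like Dgkb (r = 0.927), Galnt17 and Cacnb2, and Pde7b was most like Kctd1 (0.916), Dgkb and ENSRNOG00000069366. Pde1b was closest to Kcnq5 (0.917), Zfyve28 and Dtnb, Pde1c to Robo2 (0.874), Kctd8 and Lrrc4c, and Pde2a to Shisa7 (0.946), Kcnh1 and Trerf1. Pde4b was closest to Ctnna3 (0.825), Zswim5 and Kcnq3, and Pde4d to Magi2 (0.876), Zfp141 and Garem1. Pde8a followed Cdc42ep1 (0.954), Enpp2 and Capns1, and Pde5a followed Wwc3 (0.785), Twsg1 and Filip1l. Pde11a was most like Syt6 (0.915), Htr4 and Prkar2b, a regulatory subunit of protein kinase A (0.908).

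Drd1-like and Drd2-like nuclei of the same 6 libraries were compared over all genes with edgeR's quasi-likelihood test, with the library as a block. Of the 10 genes, 3 were higher and 5 lower in Drd1-like nuclei at an adjusted p under 0.05, where 24.9% of 12539 genes passed. Pde5a was higher by 3.26 on the log2 scale (SE 0.111, edgeR adjusted p = 3.27e-15) and Pde11a by 2.63 (SE 0.0799, edgeR adjusted p = 5.01e-16). Pde1c was higher by 0.36 (SE 0.0285, edgeR adjusted p = 3.13e-09). Pde4b was lower, with a difference of -1.73 (SE 0.0216, edgeR adjusted p = 2.11e-22). Its Drd1-like libraries lay between 792 and 972 CPM and its Drd2-like libraries between 2607 and 3318, so no library of the classes overlapped. The Pde4b difference was -1.01 with coarser clusters and -0.92 with the Drd3-led cluster added to the Drd1-like class, and that of Pde11a was 3.93 without the Dach1-led cluster; all 3 were called. Pde4d differed by -0.74 (SE 0.0342) and Pde2a by -0.20 (SE 0.0275). The differences of Pde10a and Pde1b were small, at -0.10 each (edgeR adjusted p = 0.00138 and 0.0228; -0.16 for Pde1b without the Dach1-led cluster), and both lost their call when the Drd3-led cluster was added to the Drd1-like class (adjusted p = 0.0721 and 0.705). That of Pde1b was also lost without saline replicate 1 (adjusted p = 0.103), without naloxone replicate 5 (0.0795) and with DESeq2 (0.157). Pde7b differed by 0.09 (95% interval 0.01 to 0.17, edgeR adjusted p = 0.0827) and Pde8a by -0.40 (interval -0.97 to 0.17, edgeR adjusted p = 0.332). Neither was called, and for Pde7b the call and the direction changed with the clusters and libraries used: it was 0.18 (adjusted p = 4.82e-05) without the Dach1-led cluster, 0.12 and 0.13 (0.0417 and 0.00573) without naloxone replicate 5 or 6, and -0.08 (0.145) with coarser clusters.

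**Figure D3:**
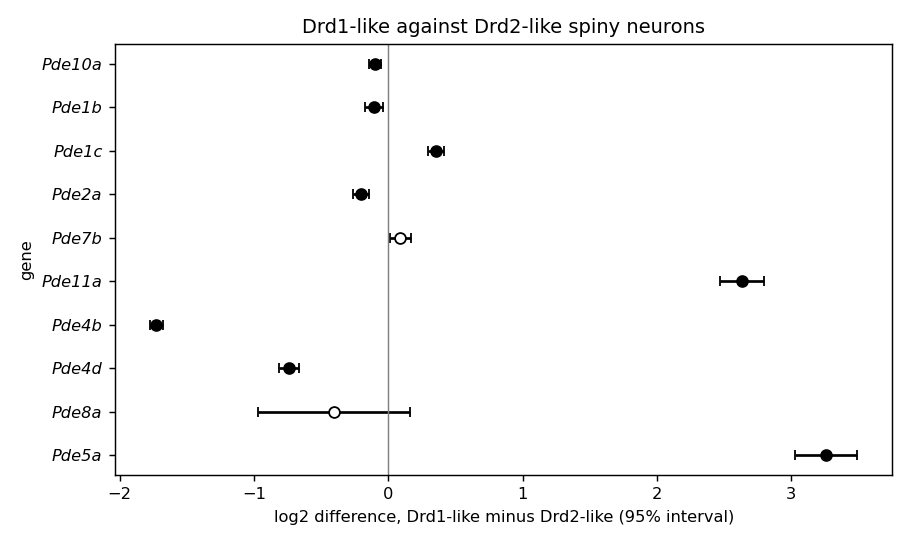
Log2 difference between Drd1-like and Drd2-like spiny neurons (horizontal axis, positive when higher in Drd1-like) for each gene, with 95% intervals from edgeR over 6 libraries and filled points where the adjusted p was under 0.05. Pde5a and Pde11a lay at 3.26 and 2.63, Pde4b at -1.73, and the open points are Pde7b and Pde8a.

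The clusters within these classes differed among themselves. Pde4b was at 857 and 880 CPM in the Chst15-led and Ebf1-led Drd1-like clusters, but at 1637 ± 149 (SD, n = 6) in the Camk4-led, 4239 ± 289 in the Htr2c-led and 3040 ± 360 in the Dach1-led Drd2-like cluster. Pde10a was at 2228 CPM ± 211 in the Chst15-led and 1202 ± 79.0 in the Ebf1-led Drd1-like cluster, whose libraries did not overlap, with 2003 CPM as the lowest of the first and 1297 as the highest of the second. Pde1c went the other way, with 609 CPM in the Chst15-led and 1046 in the Ebf1-led cluster. Among Drd2-like clusters Pde1c was lowest in the Htr2c-led one, at 383 CPM. Pde4d was at 645 CPM in the Chst15-led and 1289 in the Ebf1-led cluster, and at 754 in the Dach1-led against 1575 and 1407 in the other Drd2-like clusters. Pde7b was highest in the Dach1-led cluster, at 2068 CPM, against 1249 and 865 in the Camk4-led and Htr2c-led clusters. The clusters were drawn from the same nuclei without these genes, and the differences are given as levels with no test.

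**Figure D4:**
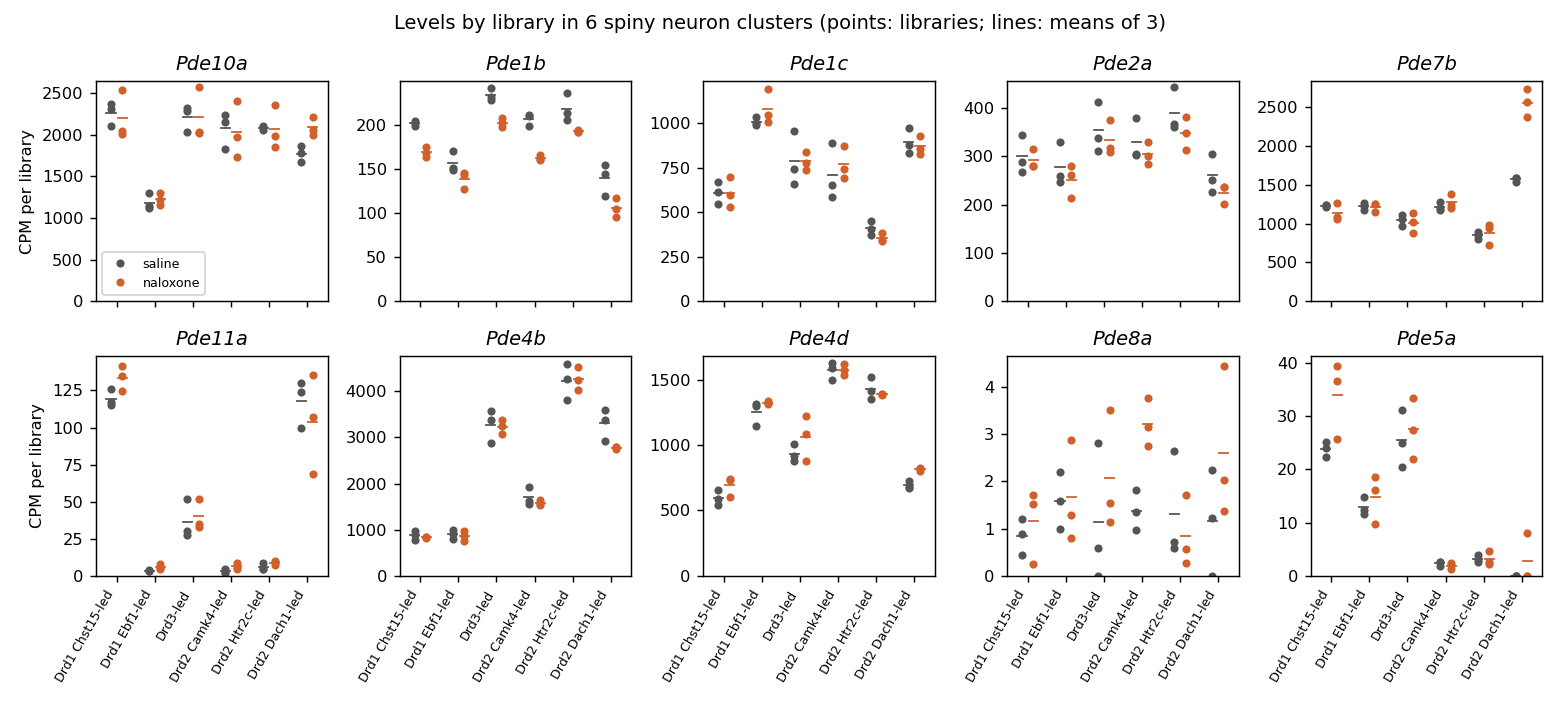
CPM in each library (points, with lines at the means of 3) for 6 spiny neuron clusters on the horizontal axis, saline in grey and naloxone in orange. The Chst15-led and Dach1-led clusters stood apart for Pde11a, and in the Dach1-led cluster the naloxone libraries for Pde7b, 2374 to 2740 CPM, lay above the saline ones, 1540 to 1593 CPM.

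The other genes of cyclic nucleotide signalling were read in the same comparison from lists taken as a whole, against the 24.9% of all genes called. Of the other phosphodiesterases, 5 of 8 tested were higher in Drd1-like nuclei (Pde1a by 1.36 on the log2 scale, Pde3a 1.02, Pde9a 0.85, Pde3b 0.32 and Pde7a 0.24) and 2 lower (Pde4a at -0.36 and Pde8b at -0.17). Pde8b turned to 0.05 (adjusted p = 0.203) with the Drd3-led cluster added and to 0.0019 with coarser clusters, and Pde3a lost its call without saline replicate 3 (0.80, adjusted p = 0.0518). Pde4a was at -0.22 without the Dach1-led cluster. The list's median difference was 0.28, against -0.0034 over all genes. Of the adenylyl cyclases, which make cAMP, 4 of 8 tested were higher and 0 lower: Adcy2 by 4.10, Adcy8 by 1.58, Adcy1 by 0.58 and Adcy5, the main striatal form, by 0.22 (0.13 with coarser clusters). All 3 tested guanylyl cyclase subunits, the nitric oxide receptors that make cGMP, were lower (Gucy1a1 at -1.69, Gucy1b1 at -0.73 and Gucy1a2 at -0.42). Both cGMP-dependent kinases were higher, Prkg2 by 0.56 and Prkg1 by 0.40, although Prkg1 lost its call with coarser clusters (0.06, adjusted p = 0.232) and was at 0.19 with the Drd3-led cluster added.

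Protein kinase A, the main cAMP target, had 2 of 6 tested subunit genes higher in Drd1-like nuclei, Prkacb by 0.23 and Prkar2b by 0.10, and 0 lower. Prkar2b lost its call with DESeq2, without naloxone replicate 4 or 6 and without the Dach1-led cluster (adjusted p = 0.0522 to 0.145), and it was at 0.16 with the Drd3-led cluster added. Of its anchors and inhibitors 3 of 10 tested were higher (Akap13 by 0.37, Pkig 0.35 and Akap6 0.19) and 2 lower (Pkia at -0.29 and Akap11 at -0.15). Akap13 was at 0.66 with coarser clusters and 0.61 with the Drd3-led cluster added. Pkia lost its call with DESeq2 (adjusted p = 0.0696) and Akap11 with the Drd3-led cluster added (0.107). Of the exchange factors that cAMP activates, Rapgef4 was lower at -0.15, which was lost with the Drd3-led cluster added (adjusted p = 0.137). Of the phosphatase inhibitors that the kinase controls, Arpp21 was higher by 0.17, and Ppp1r1a (-0.47) and Arpp19 (-0.48) were lower; the symbol Arpp19 stands for more than 1 gene in the files, which makes it uncertain. Among the transcription factors and coactivators of cAMP signalling 1 of 5 was higher, Crtc3 by 0.30.

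Naloxone was then compared with saline in each class, in edgeR fits over all genes. The 10 genes passed the filter on low counts in 134 class fits, and 0 of these were called, where 0.271% of 148693 fits over all genes were. At an unadjusted p under 0.05 there were 26, or 19.4%, against 9.27% over all genes. The 134 fits repeat 10 genes in the same 6 libraries and are not independent, and Pde1b and Pde7b gave 5 each of the 26. All naloxone libraries lay above saline in 9 pairs of gene and class and below in 10, and the groups overlapped in 141. Over all genes of at least 1 CPM, 3.25% to 8.8% lay above and 4.0% to 11.7% below, by class. DESeq2 also called 0, of 160 fits, where it called 0.367% of 177520 fits over all genes. In the Chst15-led and Ebf1-led Drd1-like clusters edgeR called 0 of the 10 genes, where 0.23% and 0.0672% of all genes were called. By class the share of all genes called was 0.18% in Drd1-like, 0.605% in Drd2-like, 0.145% in Drd3-led, 0.114% in Chst9-like and in Bnc2-like, 0.0771% in eccentric-like, 0.0333% in Pthlh and 0.0252% in somatostatin interneuron-like nuclei. It was 0.977% in astrocyte-like, 0.841% in oligodendrocyte-like, 0.321% in microglia-like and 0.267% in oligodendrocyte precursor-like nuclei. In island-like, cholinergic interneuron-like, committed precursor-like and endothelial-like nuclei it was 0%, with 686, 366, 499 and 104 genes at an unadjusted p under 0.05. In simulated data edgeR recovered 3.5% of log2 changes of 1 in endothelial-like and 23% in committed precursor-like nuclei. Changes of that size could thus go uncalled in these classes. Over all nuclei as 1 pool the share of all genes called was 0.0403%, and edgeR called 0 of the 10 genes there. At an unadjusted p under 0.05 there were 4 of the 10, against 2484 of 17357 genes. DESeq2 called 2 over all nuclei, Pde1b (log2 change -0.39, adjusted p = 0.0132) and Pde11a (0.37, adjusted p = 0.0194), of 381 genes it called. Without the filter on low counts edgeR called 12 of 160 class fits of the 10 genes, where 0.894% of 284966 fits over all genes were called. Without saline replicate 3 it called 3 of 138 (0.202% over all genes), and without naloxone replicate 5 it called 1 of 137 (0.354%).

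**Figure D5:**
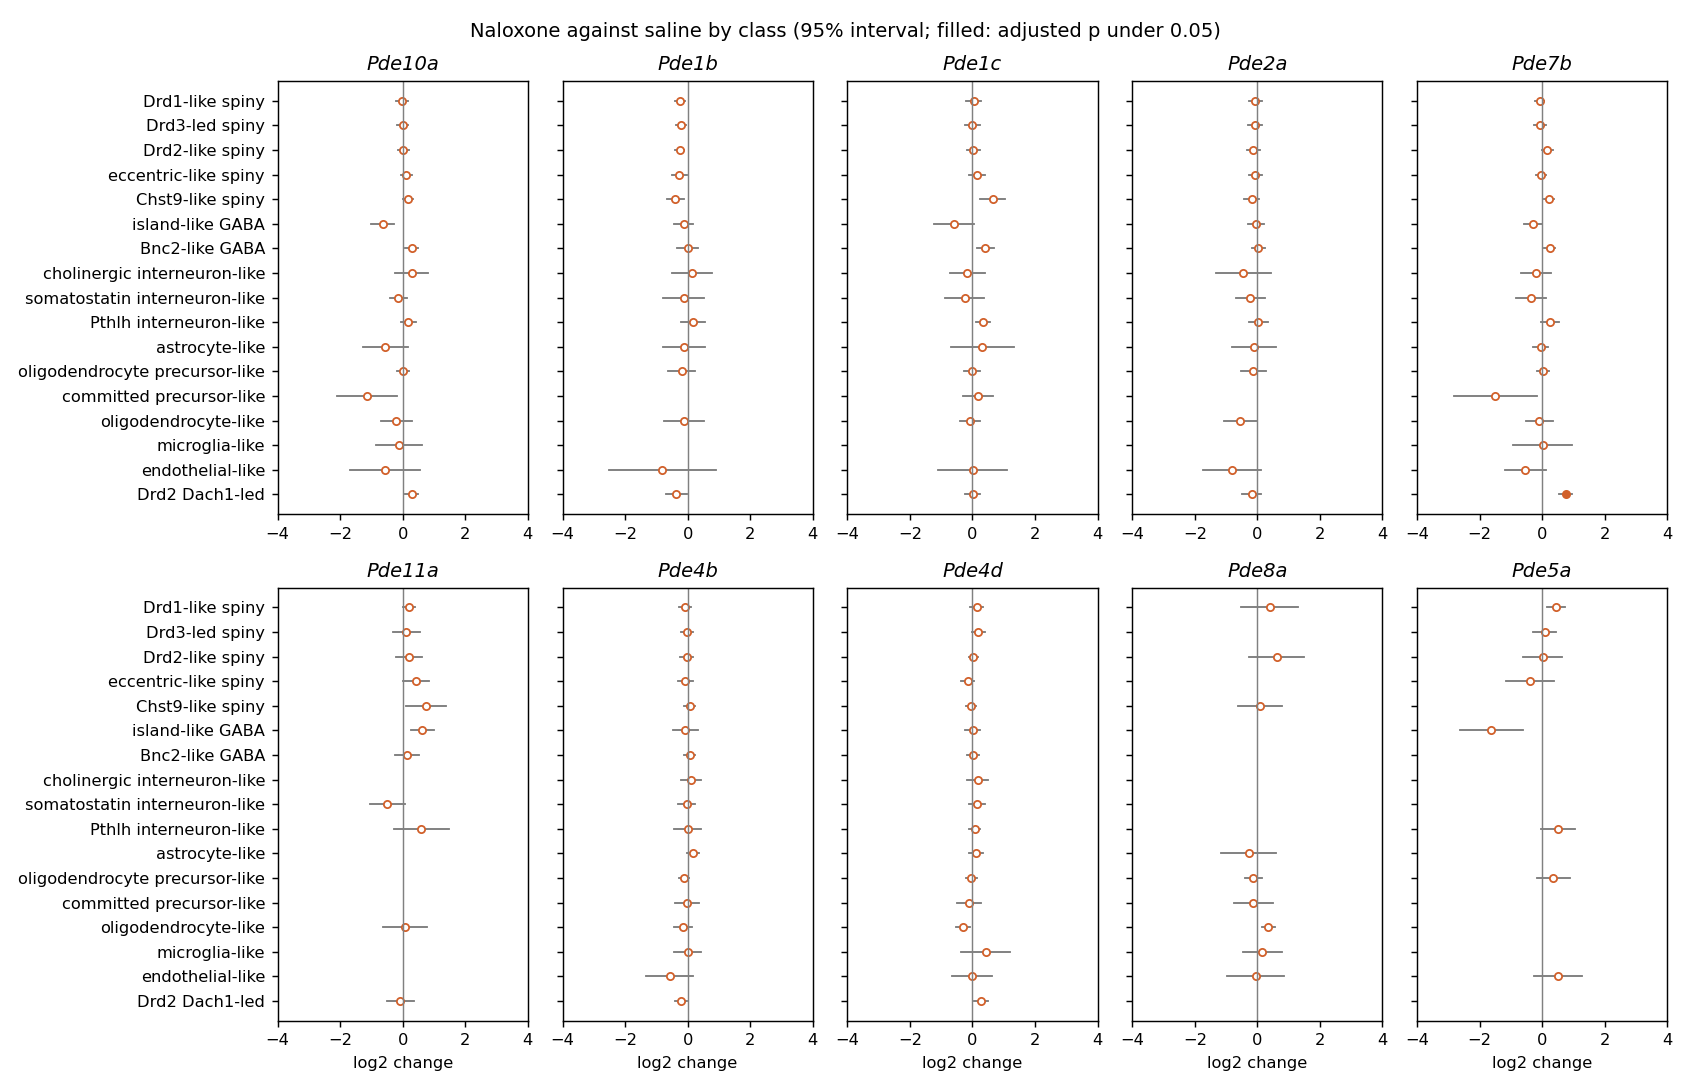
Log2 change after naloxone (horizontal axis) with 95% intervals from edgeR for each gene (panels) in the tested classes and the Dach1-led cluster (rows), with 3 libraries a group. Rows are empty where the gene did not pass the filter on low counts, and the only filled point, for an adjusted p under 0.05, is Pde7b in the Dach1-led cluster at 0.75.

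Pde1b in Drd2-like nuclei was at 214, 204 and 204 CPM with saline and at 172, 173 and 170 with naloxone. In Drd1-like nuclei it was at 181, 191 and 190 CPM with saline and at 163, 154 and 161 with naloxone. All naloxone libraries were below all saline libraries in both classes, where 11.7% and 9.73% of genes of at least 1 CPM had that order. The same order held in the Drd3-led cluster (228 to 242 against 198 to 208 CPM, 7.52% of genes), in Chst9-like nuclei (39.4 to 47.5 against 28.6 to 35.0 CPM, 8.43%) and in microglia-like nuclei, where it rested on 35 UMIs in all (5.61%). The log2 changes were -0.25 in Drd2-like (95% interval -0.41 to -0.10, edgeR adjusted p = 0.134), -0.23 in Drd1-like (-0.39 to -0.08, adjusted p = 0.24), -0.21 in the Drd3-led cluster (0.388), -0.39 in Chst9-like (0.313) and -0.26 in eccentric-like nuclei (0.492), and none passed the threshold. The difference between the Drd1-like and Drd2-like changes was 0.02 (interval -0.11 to 0.14).

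Other changes of the family in the classes missed the threshold as well. Pde8a in oligodendrocyte-like nuclei was at 531, 511 and 580 CPM with saline and at 683, 717 and 691 with naloxone. All naloxone libraries were above all saline libraries, an order that 8.8% of genes showed, and the log2 change was 0.35 (edgeR adjusted p = 0.165). Pde4d in the same nuclei had 1263, 1426 and 1357 CPM with saline and 1215, 1059 and 1021 with naloxone, a log2 change of -0.31 (edgeR adjusted p = 0.29), where 8.93% of genes lay lower in all naloxone libraries. Pde5a in Drd1-like nuclei was at 19.4, 20.6 and 20.7 CPM with saline and 29.7, 23.3 and 29.9 with naloxone, where 8.05% of genes lay higher. Its log2 change was 0.44 (edgeR adjusted p = 0.208), and it was 0.59 and called without naloxone replicate 5 (adjusted p = 0.0269).

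In the island-like GABA class 3 of the genes had an unadjusted edgeR p of 0.0028 or less, and none was called (adjusted p = 0.3 to 0.338). Of all 9016 genes tested there, 686 were under an unadjusted p of 0.05. Pde11a had a log2 change of 0.63, Pde10a of -0.64 and Pde5a of -1.63, the last on 80 UMIs in all. Without saline replicate 2 these were 0.41, -0.37 and -1.05, and that of Pde5a was -0.87 with coarser clusters. The Pde11a groups overlapped, and without saline replicate 3, at 273 CPM the highest saline library, the change was 0.99 and called (adjusted p = 0.0105). Pde1c had log2 changes of 0.64 in Chst9-like (edgeR adjusted p = 0.25), 0.41 in Bnc2-like (0.372) and 0.34 in Pthlh interneuron-like nuclei (0.493). In the last the naloxone libraries (356, 416 and 467 CPM) lay above the saline ones (339, 307 and 341), as they did for 5.74% of genes. For Pde10a in Drd2-like nuclei the change was 0.02 with an interval of -0.15 to 0.19, and for Pde4b there it was -0.03 with an interval of -0.23 to 0.17.

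Pde7b was the exception at the level of single clusters. In the Dach1-led Drd2-like cluster it was at 1593, 1540 and 1585 CPM with saline and at 2374, 2740 and 2576 CPM with naloxone, so that the lowest naloxone library was far above the highest saline library, an order 6.36% of genes had there. The log2 change was 0.75 (SE 0.0945, 95% interval 0.55 to 0.94, edgeR adjusted p = 8.33e-05). It was the 1 call among the 8 of the 10 genes tested there, where 2.98% of 6819 genes were called. Of the 203 genes called there, 156 rose and 47 fell. The cluster was small, with 50, 122 and 78 nuclei in the saline and 53, 66 and 64 in the naloxone libraries, and the value rested on 7614 Pde7b UMIs. The median nucleus had 1490, 1336 and 1433 CPM with saline and 2070, 2138 and 1652 with naloxone, and the upper quartile 1902, 1986 and 1918 against 3090, 3062 and 3432. The change was between 0.71 and 0.79 with each library left out in turn and stayed called, and DESeq2 gave 0.75 (adjusted p = 3.91e-12). The 7 markers of Drd2-like neurons summed to 954 to 1105 CPM with saline and 932 to 1104 with naloxone in this cluster, and the 8 of Drd1-like neurons to 15.7 to 30.7 and 11.1 to 30.3. The 3 markers of GABA neurons summed to 744 to 822 CPM with saline and 1128 to 1428 with naloxone, and the 3 of all neurons to 6849 to 6938 and 7716 to 8106; their part in the result was not tested. The Drd2-type sums of the Dach1-led cluster lay below the mean sum of the whole Drd2-like class. Beside Drd2, its leading genes included the eccentric-like marker Casz1. Thsd7b and Enox2 led both this cluster and the eccentric-like class, so its Drd2-like name is less certain.

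In the other Drd2-like clusters Pde7b changed by 0.08 each (edgeR adjusted p = 0.765 in the Camk4-led and 0.816 in the Htr2c-led cluster, where 0.469% and 0.36% of genes were called). The difference between the Dach1-led cluster and these combined was tested after the values had been seen. It was 0.66 on the log2 scale (SE 0.0914, 95% interval 0.48 to 0.85, edgeR adjusted p = 4.84e-06, library as a block), where 0.669% of genes were called, and it lay between 0.64 and 0.70 with each library left out. Over the whole Drd2-like class the change was 0.17 (edgeR adjusted p = 0.351) and without the Dach1-led cluster 0.08. The Dach1-led cluster made up similar parts of the class in both groups, 8.38% with saline and 8.54% with naloxone on average.

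Of the 10 genes, Pde7b was also the only one whose change was called different between Drd1-like and Drd2-like nuclei, where 0.941% of 13075 genes were. Of the 123 genes called, 107 had a negative difference, Drd1-like minus Drd2-like, and 16 a positive one. For Pde7b the Drd1-like change minus the Drd2-like change was -0.25 (SE 0.0458, 95% interval -0.34 to -0.15, edgeR adjusted p = 0.00345), with changes of -0.08 and 0.17 in the classes themselves. Without the Dach1-led cluster the difference was -0.16 and was not called (adjusted p = 0.129). In Chst9-like nuclei Pde7b was at 405, 429 and 374 CPM with saline and 468, 484 and 434 with naloxone, and in Bnc2-like nuclei at 289, 302 and 270 against 340, 344 and 323. The naloxone libraries were above in both classes, as they were for 6.29% and 6.19% of genes, with log2 changes of 0.21 and 0.23 (edgeR adjusted p = 0.375 and 0.461). Rises were not the rule for Pde7b. Over the 16 tested classes it was higher with naloxone in 6 and lower in 10, with log2 changes from -1.5 to 0.25.

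Of the other genes of the pathway, Pde1a alone was called in a class after naloxone. In Drd2-like nuclei it rose from 280.5, 312 and 275 CPM with saline to 473, 359 and 428 with naloxone. The log2 change was 0.56 (SE 0.102, edgeR adjusted p = 0.0282), where 0.605% of genes were called and 7.62% were higher in all naloxone libraries of this class. In the Htr2c-led cluster Pde1a rose by 0.86 (edgeR adjusted p = 0.0124), where 0.36% of genes were called. Pde1a encodes a calcium- and calmodulin-activated enzyme, as Pde1b and Pde1c do. Its call in the Drd2-like class was lost when any 1 library other than naloxone replicate 5 was left out (edgeR adjusted p = 0.0651 to 0.16), and when p was adjusted over all classes together (0.0517); in the Htr2c-led cluster it was lost without any saline library (0.0631 to 0.0997). In Drd1-like nuclei Pde1a was at 906, 780 and 761 CPM with saline and 1039, 820 and 1026 with naloxone, and the groups overlapped. The difference between the classes, Drd1-like minus Drd2-like, was -0.31 (SE 0.0626, edgeR adjusted p = 0.00767), lost without saline replicate 1 or 3 (0.0596 and 0.0644).

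The pathway genes called in the Dach1-led cluster beside Pde7b included Pde4a, Pde8b, Arpp21 and Gucy1a1, where 2.98% of 6819 genes were called. Pde4a rose by 0.88 (SE 0.167, edgeR adjusted p = 0.00412), from 67.4, 77.3 and 75.8 CPM with saline to 140, 131 and 128 with naloxone. Pde8b rose by 0.44 and Arpp21 by 0.51, whereas Gucy1a1 fell by 0.63. The saline and naloxone libraries of these 3 did not overlap (6.36% of genes lay higher and 9.58% lower in all naloxone libraries). The call of Pde8b ended without any 1 library other than naloxone replicate 6, that of Gucy1a1 without any 1 other than saline replicate 1 and naloxone replicate 4, and that of Arpp21 without either of saline replicates 2 and 3 and without naloxone replicate 6 (edgeR adjusted p = 0.0532 to 0.17 in these fits). In the Htr2c-led cluster, where 0.36% of genes were called, Arpp19 fell by 0.52 (edgeR adjusted p = 0.041). The call ended without any 1 library other than naloxone replicate 5.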

How the data were processed

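Nuclear RNA of 6 libraries was counted by the authors with Cell Ranger 9.0.1 on build mRatBN7.2, per the submitters' processing notes, which also name Seurat 5.2.1 and R 4.4.0; the deposited values were raw UMI counts per gene and barcode. Whether intronic reads were counted is not given in the sources used here. Barcodes needed 500 detected genes and no more than 5% of UMIs from mitochondrial genes, and the top 0.4% per 1000 barcodes by simulated-doublet score were removed (3.24% to 6.01% of a library). Clustering used 3000 variable genes, 40 principal components, 15 neighbours and Leiden resolution 1.0 (leidenalg 0.10.2, scipy 1.17.1), without the phosphodiesterases, the pathway lists, mitochondrial genes and sex-linked transcripts. Clusters were named from marker lists. UMIs were summed per library and class with at least 20 nuclei in every library and tested with edgeR 4.0.16 (R 4.3.3, quasi-likelihood, TMM, filterByExpr, Benjamini-Hochberg over all genes of a fit, threshold 0.05, 95% intervals). DESeq2 1.42.0 and the settings given at the end were alternatives, and the fits were tested on simulated data. Thinning gave the expected share of nuclei with a UMI at 1000 UMIs and left out shallower nuclei (31.6% of microglia-like, 16.1% of oligodendrocyte-like, 1.69% of island-like, 5.06% of astrocyte-like and 0% of Drd1-like nuclei). The libraries were the replicates, from 12 rats that the labels do not assign to libraries, so p-values measure the spread between libraries.

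The 10 genes and the pathway lists were chosen with earlier results of these data known. All 10 genes are named, other pathway genes are named where they were called (1 list is not reported here), and the 3 genes most like each of them are named. No sequences are shown.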

Additional observations from a re-analysis of the deposited data

Results flagged for a closer look

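The change after naloxone differed between Drd1-like and Drd2-like nuclei, by edgeR's test of the difference itself, for Pde7b (-0.25 on the log2 scale, Drd1-like minus Drd2-like, adjusted p = 0.00345), for Pde1a (-0.31, adjusted p = 0.00767) and for Pde9a (-0.36, SE 0.0836, adjusted p = 0.0276). Of the 123 genes called in this test, 0.941% of those tested, 107 were negative, as these were, and 16 positive. The Pde7b difference was not called without the Dach1-led cluster (-0.16, adjusted p = 0.129). That of Pde9a, which encodes a cGMP-specific enzyme, was lost without that cluster (-0.36, adjusted p = 0.0518), with DESeq2 (adjusted p = 0.335) and in edgeR without any 1 library other than naloxone replicate 4 (adjusted p = 0.0579 to 0.144).

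The change also differed between the Dach1-led cluster and the other Drd2-like clusters for Pde7b (0.66, edgeR adjusted p = 4.84e-06) and for Pde4a (0.89, SE 0.192, edgeR adjusted p = 0.0065). This comparison, where 0.669% of genes were called, was chosen after the values had been seen.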

How the results depend on the processing

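No paired analysis was possible because the saline and naloxone libraries share no replicate number. Without a filter on low counts edgeR called 12 changes after naloxone over the classes in place of 0 (of 160 fits, where 0.894% of all gene fits were called against 0.271% with the filter): 1 each in Bnc2-like, Drd1-like and astrocyte-like, 2 in Chst9-like, 3 in island-like and 4 in committed precursor-like nuclei, and 1 each in the Chst15-led and Camk4-led clusters. The share of all genes called without the filter was 0.329%, 1.58%, 1.82%, 0.727%, 0.337%, 1.81%, 1.31% and 1.19% in these, in that order. With 1 library left out the number over the classes was between 0 and 3 (3 without saline replicate 3, where 0.202% of all gene fits were called, and 1 without naloxone replicate 5, where 0.354% were), with 0 to 1 in Drd1-like nuclei, the Chst15-led cluster and all nuclei (each 1 without naloxone replicate 5, with 0.445%, 0.435% and 1.48% of all genes called), 0 to 1 in island-like and 0 to 2 in committed precursor-like nuclei (without saline replicate 3, with 0.075% and 3.29% of all genes called). DESeq2 called 2 over all nuclei, where it called 2.57% of all genes. Leaving out the Dach1-led cluster, which was chosen as an alternative after seeing the data, left 0 genes with a Drd1-like to Drd2-like difference in the change in place of 1.

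With coarser clusters (resolution 0.5) the Drd1-like minus Drd2-like difference of Pde7b turned to -0.084, that of Pde8b to 0.0019 and the ratio of Drd1-like to eccentric-like Pde7b to 0.91. Adding the Drd3-led cluster, also chosen after seeing the data, turned Pde8b to 0.047. With a library left out the Pde7b ratio ran from 0.998 to 1.013 and fell under 1 without saline replicate 1 or 3. With RLE factors and with a minimum of 1000 genes per nucleus, 96 and 105 results were recomputed. None changed its call or direction or moved beyond the limits set for counts and ratios. The values themselves moved: 403 calls over all genes and classes became 401 and 391. Coarser clusters were not run for the single clusters or for all nuclei, although a Dach1-led cluster of 435 nuclei was present at that resolution too.

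Over all genes edgeR and DESeq2 differed in their counts after naloxone by more than 1.5 times in several fits: 7 against 381 over all nuclei, 23 against 67 in Drd1-like, 76 against 156 in Drd2-like, 96 against 170 in oligodendrocyte-like, 0 against 38 in committed precursor-like and 203 against 118 in the Dach1-led cluster. The Drd1-like to Drd2-like comparison gave 3127 against 1953, and the difference in the change 123 against 31. The endothelial-like and cholinergic interneuron-like classes had 35 nuclei in their smallest library, so their intervals are wide.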
